A study of Danio rerio with 2 samples.

Results

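Amacrine cells of the zebrafish retina were examined in single-cell RNA-sequencing of whole heads at 3 dpf (days post fertilization), with 581 cells in the library labelled *polr3a* mutant and 719 cells in the wild-type-labelled library. They were chosen by transcripts. A barcode was kept with 500 to 20000 unique molecular identifiers (UMIs, each a counted transcript molecule), 500 to 5000 genes and at most 20% mitochondrial UMIs. It was taken as an amacrine cell with at least 1 UMI of *pax10*, at least 1 UMI over *tfap2a* and *tfap2b*, and no UMI of the ganglion cell gene *rbpms2b*. These 1300 cells were among 65020 kept cells, 27277 in the mutant-labelled library and 37743 in the wild-type-labelled library.

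The mutant carries *polr3a* sa907, a chemically induced nonsense allele in the gene for the largest subunit of RNA polymerase III, which makes tRNAs, 5S rRNA and other small RNAs. By the paper, fish of the mutant pool were homozygous for sa907, and those of the wild-type pool had no sa907 allele. Both groups came from crosses of heterozygous sa907 carriers, 1 parent with Tg(fli1a:egfp) and the other with Tg(sox10:mRFP), and the embryos of both groups were screened for both reporters and genotyped from fin clips. For each genotype, 10 heads cut at the pectoral fin were pooled into 1 library of sorted viable cells. There is 1 library per condition and no replicate. The fish within a pool cannot be told apart, so all differences below are between 2 libraries, and the intervals given are exact 95% intervals for counting error only.

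Amacrine cells are the inhibitory interneurons of the inner retina. Most release GABA or glycine onto bipolar cell terminals, ganglion cells and each other, and smaller sets add acetylcholine, dopamine or peptides. In vertebrates they arise from retinal progenitors under Foxn4 and Ptf1a, which favour amacrine and horizontal over other fates, and AP-2 factors (*tfap2* genes), Pax6, Barhl2 and Prdm13 act in their specification and subtype choice. *slc32a1* encodes the transporter that loads both GABA and glycine into synaptic vesicles.

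The libraries held 204627512 UMIs over 32228 barcodes in the mutant-labelled sample and 224911840 UMIs over 43611 barcodes in the wild-type-labelled sample. Kept cells had a median of 4157 UMIs in the mutant-labelled library, against 3466 UMIs in the wild-type-labelled library. The barcodes of 294 kept cells occurred in both libraries. Of the amacrine cells, 8 labelled mutant and 12 labelled wild-type had a barcode that was also a kept cell of the other library, and 0 were amacrine cells in both. Amacrine cells themselves had a median of 5251 UMIs and 2351 genes in the mutant-labelled library, against 4539 UMIs and 2083 genes in the wild-type-labelled library, with median mitochondrial shares of 2.94% and 2.91%. UMIs summed over these cells came to 3495151 and 3959089. *polr3a* itself gave 39 UMIs (11.2 CPM, counts scaled to 1000000 per library) in mutant-labelled amacrine cells and 59 UMIs (14.9 CPM) in wild-type-labelled ones, a log2 ratio of -0.42 (-1.04 to 0.19). In all other kept cells *polr3a* had 15.8 CPM in the mutant-labelled library, against 13.3 CPM in the wild-type-labelled library. That is a log2 ratio of 0.24 (0.15 to 0.33). The paper reports a significant decrease of this mRNA in homozygous mutants by quantitative RT-PCR. The counts in all other kept cells go the other way, and the cause was not tested. A 3′ tag does not read the sa907 base change itself, and the labels were not checked otherwise.

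Amacrine cells made up 2.13% of kept cells (Clopper-Pearson interval 1.96 to 2.31%) in the mutant-labelled library and 1.90% (1.77 to 2.05%) in the wild-type-labelled library. The intervals overlap. A share of the captured cells depends on every other cell type that was captured, and fewer cells of a type and a lower chance of meeting the rule cannot be told apart. When every kept cell was thinned at random to 1000 UMIs before the rule was applied, the shares were 1.07% and 0.979%.

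The choice by few UMIs was loose at its edges. Of the members, 159 labelled mutant and 204 labelled wild-type had exactly 1 *pax10* UMI, and 31 and 49 had 1 UMI of *pax10* and 1 over *tfap2a* and *tfap2b*. Just outside the rule, 84 and 110 cells met it apart from a *rbpms2b* UMI. Cells with 1 *pax10* UMI had 777 CPM of *pax6a* in the mutant-labelled library and 691 CPM in the wild-type-labelled library. Cells with more *pax10* had 1567 and 1536 CPM. Cells with *rbpms2b* that otherwise met the rule had 1053 and 1011 CPM of *pax6a* but also 401 and 257 CPM of the ganglion cell factor *isl2b*, which had only 7 and 12 UMIs in all members. *tfap2a* had a UMI in 93.6% and 92.6% of members and *tfap2b* in 66.6% and 64.3%.

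Several genes that the rule did not use went with the label, given here as a description since such genes accompany those of the rule. *pax6a*, a paired box factor of the eye field kept on in amacrine and ganglion cells, stood at 1391 CPM in mutant-labelled and 1324 CPM in wild-type-labelled amacrine cells, against 108 and 114 CPM in all other kept cells. *tfap2c*, an AP-2 factor, stood at 663 and 576 CPM, against 23.6 and 22.6 CPM in other cells. *slc32a1* stood at 554 and 522 CPM, against 56.5 and 56.1 CPM in other cells. The AP-2 gene *tfap2e* stood at 794 and 755 CPM, against 51.1 and 89.0 CPM in other cells, and *barhl2*, a Bar-class homeobox gene, had a UMI in 57.1% and 55.2% of members. In both libraries these 5 genes had higher levels in amacrine cells than in the bipolar, ganglion, Müller or photoreceptor cells defined by their own markers. *pax6a* came nearest in ganglion cells, at 760 and 666 CPM. Not every listed amacrine marker went this way. *neurod6b* was lower in members, at 6.01 and 10.6 CPM, against 60.9 and 64.3 CPM in other cells. *slc6a1b* was little higher, at 167 and 187 CPM, against 127 and 169 CPM.

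The genes with the largest excess over other cells also included *pvalb6*, a parvalbumin (1041 and 960 CPM, in 34.8% and 32.1% of members), *cabp1b*, a calcium-binding protein gene (142 and 140 CPM), and *glra4b*, a glycine receptor subunit gene (80.4 and 64.9 CPM, against 2.13 and 2.66 CPM in other cells). *gbx2*, a homeobox gene known from a subset of mouse amacrine cells, had a UMI in 16.5% and 13.9% of members. *si:dkeyp-41f9.4*, which led the list, was held by 12.6% of members labelled mutant and 12.5% labelled wild-type, at 235 and 227 CPM.

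**Figure D1:**
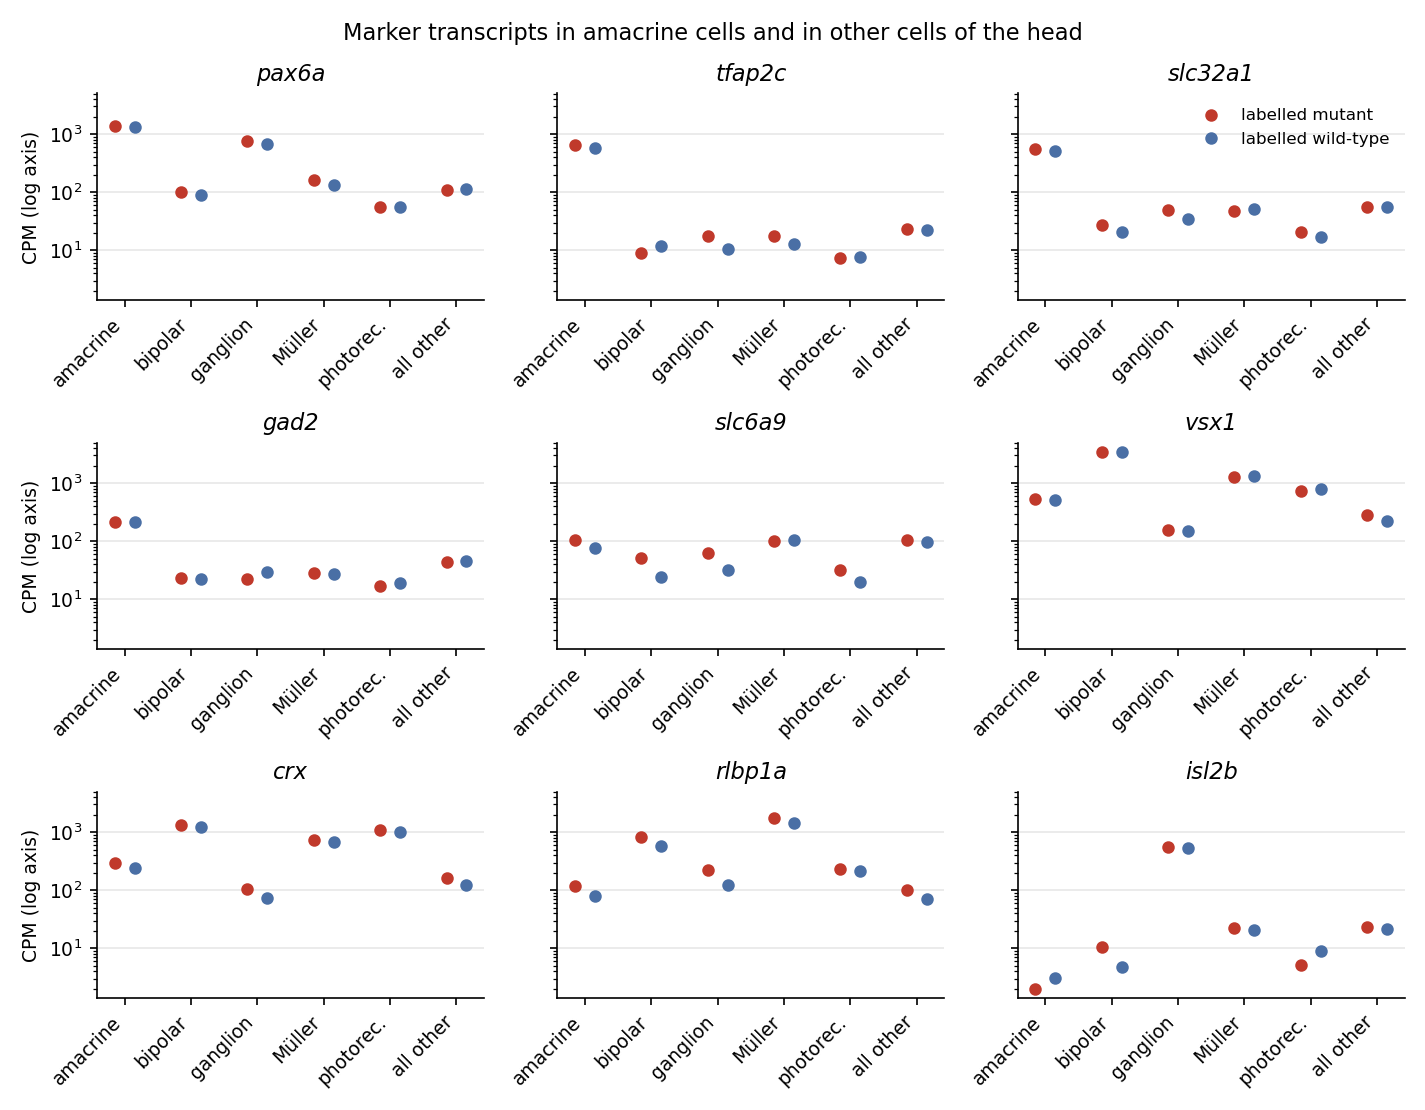
Levels (CPM, log axis) of 9 marker genes in amacrine cells, in 4 other retinal classes defined by their own markers and in all other kept cells, with 1 point per library (red, labelled mutant; blue, labelled wild-type). *pax6a*, *tfap2c*, *slc32a1* and *gad2* are highest in amacrine cells in both libraries, whereas *slc6a9* is at 107 and 76.5 CPM in amacrine cells and at 103 and 97.8 CPM in all other kept cells, and *vsx1* is present in amacrine cells at 543 and 512 CPM.

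Transcripts of other retinal classes were present too. *vsx1*, a homeobox factor of bipolar cells, had a UMI in 31.8% of members labelled mutant and 28.9% labelled wild-type, at 543 and 512 CPM, against 3456 and 3423 CPM in bipolar cells. The photoreceptor and bipolar factor *crx* stood at 294 and 240 CPM. Of 4 vesicular glutamate transporter genes, *slc17a7a* had 16.6 and 13.9 CPM in members, against 23.5 and 17.5 CPM in other kept cells, *slc17a6a* 2.86 and 4.04 CPM, *slc17a6b* 2.58 and 4.29 CPM, and *slc17a8* 20 and 3 UMIs. Members with a *vsx1* UMI had a median of 7324 and 5932.5 UMIs, against 4631 and 4122 in members without one. Whether these were doublets, free RNA or cells with both programmes was not tested. Of the members, 266 labelled mutant (45.8%) and 360 labelled wild-type (50.1%) had no UMI of *vsx1*, *cabp5a*, *crx*, *rlbp1a*, *lhx1a*, *onecut1* or *isl2b*, and these had 1689 and 1558 CPM of *pax6a* and 664 and 577 CPM of *slc32a1*.

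Summed over 9 bipolar markers the level was 1728 CPM in mutant-labelled and 1528 CPM in wild-type-labelled members, against 795 and 634 CPM in other kept cells. Over 7 Müller glia markers it was 3330 and 3206 CPM, against 5433 and 4871 CPM, and over 9 progenitor markers it was 1691 and 2024 CPM, against 2815 and 3401 CPM. Over 10 horizontal cell markers it was 486 and 498 CPM, against 314 and 316 CPM, with at least 10 such UMIs in 54 and 60 members. *prox1a*, a homeobox gene that amacrine cells also use, gave most of these, at 323 and 313 CPM, and the connexin gene *cx52.6* had 0 and 2 UMIs.

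Of the markers of more distant cells, those of photoreceptors and of blood, lens and muscle were held mostly by a few barcodes in both libraries. Over the 14 photoreceptor markers the summed level was 2815 CPM in mutant-labelled and 3527 CPM in wild-type-labelled members, and 70.0% and 59.2% of those UMIs lay in 5 members of each library. Over the 8 epidermal and neural crest markers it was 132 and 2125 CPM, with 36.4% and 79.4% in 5 members. Of these markers, *krt4* had a UMI in 16.9% and 25.7% of members. Over the 8 blood, lens and muscle markers it was 5383 and 4230 CPM, with 97.5% and 78.6% in 5 members. At least 10 UMIs of 1 of these lists were found in 69 mutant-labelled and 77 wild-type-labelled members. Over 13 brain neuron markers the level was 201 and 218 CPM, against 747 and 782 CPM in other kept cells, with 33.7% and 30.6% in 5 members. Over 6 markers of pigment epithelium and pigment cells it was 14.6 and 56.8 CPM, with 27.5% and 76.0% in 5 members.

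The transmitter genes were then compared among members. At the full depth, 66.1% of members labelled mutant and 63.7% labelled wild-type had a UMI of *gad1a*, *gad1b* or *gad2*, which encode the enzymes that make GABA. With each cell thinned to 1000 UMIs, which left out 11 and 10 shallower members, the shares were 27.4% (23.7 to 31.2%) and 27.1% (23.8 to 30.5%). Epidermal cells, which should lack these genes and were taken as cells with at least 3 *krt5* UMIs and no *elavl3* UMI, gave 0.377% and 1.78% at the same depth of 1000 UMIs. The GABA shares of the libraries lay within each other's intervals and above the epidermal share. *gad2* was the most abundant of the 3 genes, at 213 and 216 CPM. *gad1b* had 116 and 118 CPM, and *gad1a* only 2.29 and 7.07 CPM.

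Glycine genes were rarer, and their share lay closer to that of the epidermal cells. *slc6a9*, the glycine transporter of amacrine cells that is also made by glia, had 373 UMIs (107 CPM) in mutant-labelled and 303 UMIs (76.5 CPM) in wild-type-labelled members, a log2 ratio of 0.48 (0.26 to 0.70). All other kept cells had 103 and 97.8 CPM, so that *slc6a9* was not enriched in amacrine cells as a whole. *slc6a5*, the neuronal glycine transporter, had 45 UMIs in 11 members labelled mutant and 16 UMIs in 16 members labelled wild-type. At 1000 UMIs per cell, 7.72% (5.66 to 10.2%) and 5.50% (3.94 to 7.44%) of members had a UMI of either gene. The epidermal cells gave 2.64% (1.45 to 4.38%) and 3.69% (2.49 to 5.26%), below the members' interval in the mutant-labelled library and overlapping it in the wild-type-labelled library. The members' intervals of the libraries overlap. At full depth the shares were 22.0% and 18.9% in members and 18.2% and 17.0% in the epidermal cells, whose median depth was 8878.5 and 7624.5 UMIs. In those epidermal cells *slc6a9* had a UMI in 17.0% and 16.0%, against 0.749% and 1.40% for *slc32a1*. Whether epidermal cells make *slc6a9* was not tested, so their share may not be a background for the glycine genes.

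**Figure D2:**
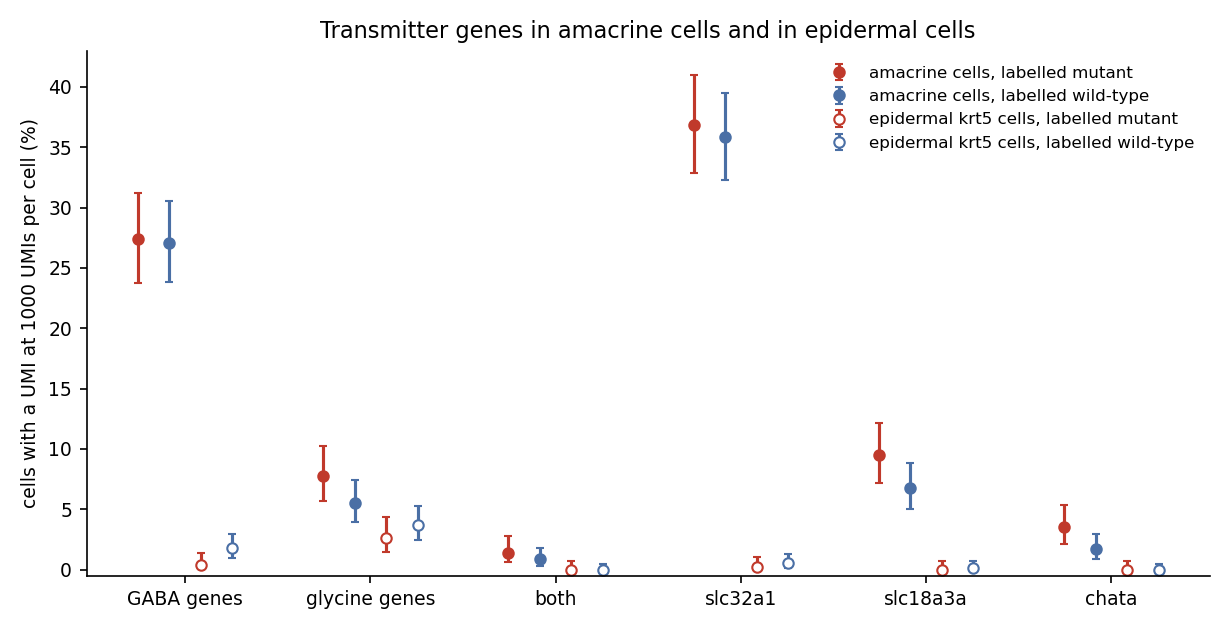
Percent of cells with a UMI after thinning to 1000 UMIs per cell, with exact Clopper-Pearson 95% intervals, for amacrine cells (filled) and epidermal *krt5* cells (open), each labelled mutant (red) and labelled wild-type (blue). The GABA shares are 27.4% and 27.1% in amacrine cells, while the glycine shares are 7.72% and 5.50%, against 2.64% and 3.69% in the epidermal cells.

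Cholinergic genes marked a further set. *slc18a3a*, the vesicular acetylcholine transporter, had 374 UMIs in 16.4% of members labelled mutant and 359 UMIs in 14.5% labelled wild-type (107 and 90.7 CPM, against 8.11 and 7.93 CPM in other kept cells). *chata*, which makes acetylcholine, had a UMI in 9.47% and 7.37% of members. *megf10*, which in mouse starburst amacrine cells spaces the cell bodies, stood at 60.1 and 57.8 CPM. After thinning, *slc18a3a* was found in 9.47% (7.20 to 12.2%) and 6.77% (5.03 to 8.88%) of members, and in 0 and 0.127% of the epidermal cells. The 0 of 531 cells allows a share of up to 0.565% by a floor of 3 counts, or 0.692% by the Clopper-Pearson limit.

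Dopaminergic and peptide genes were held by few cells with many UMIs each. *th*, tyrosine hydroxylase, had 279 UMIs in 12 cells labelled mutant and 96 UMIs in 10 cells labelled wild-type, with 73.1% and 91.7% of them in 5 cells, so that the log2 ratio of 1.72 rests on a handful of cells. Few cells also held *crhb* (107 and 209 UMIs in 17 and 18 cells), *pyya* (154 and 35 UMIs in 5 and 11 cells), *sst1.1* (68 and 59 UMIs in 7 cells each) and *ccka* (88 and 16 UMIs in 6 and 8 cells). *nos1*, neuronal nitric oxide synthase, had a UMI in 24 and 27 cells.

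By UMIs of the GABA and glycine genes at full depth, members fell into 4 classes. There were 308 mutant-labelled and 379 wild-type-labelled cells with GABA genes only, 52 and 57 with glycine genes only, 76 and 79 with both, and 145 and 204 with neither. Median depth was 5269.5 and 4665 UMIs in the GABA-only class, 6893 and 5339 in the glycine-only class, 7688 and 7902 in the class with both, and 3820 and 3625 in the class with neither. Depth thus differed between the classes. The glycine-only class was 8.95% and 7.93% of members, against 18.2% and 16.4% of the epidermal cells, which were deeper. This comparison cannot place the class against background. The class leaves out cells with a GABA gene UMI, which were 66.1% and 63.7% of members but 2.62% and 4.96% of the epidermal cells. Whether cells of the class use glycine was not tested.

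The AP-2 genes *tfap2c* and *tfap2e* were higher in GABA-only than in glycine-only cells in both libraries. *tfap2c* stood at 877 CPM in GABA-only and 197 CPM in glycine-only cells labelled mutant (log2 ratio 2.16), and at 777 and 172 CPM in those labelled wild-type (2.17). *tfap2e* stood at 1121 and 233 CPM in mutant-labelled cells and at 989 and 326 CPM in wild-type-labelled cells. *celf4*, an RNA-binding protein gene of neurons, stood at 726 and 170 CPM and at 638 and 186 CPM. *slc32a1*, which both transmitters use, differed less, at 679 and 379 CPM and at 653 and 299 CPM. *tfap2e* and *celf4* were chosen after their values were seen.

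The 10 genes farthest to the glycine side in both libraries were chosen for that, and no list was set for them. *mki67*, a proliferation marker, stood at 32.0 CPM in GABA-only and 130 CPM in glycine-only cells labelled mutant, and at 48.4 and 286 CPM in those labelled wild-type. Its glycine-only UMIs came from 9 cells labelled mutant and 16 cells labelled wild-type. *cenpf*, *ube2c* and *nusap1*, mitotic genes, had the same direction in both libraries. *prdm13*, a zinc finger factor needed for subsets of amacrine cells in mice, stood at 81.0 and 262 CPM in mutant-labelled cells and at 79.2 and 232 CPM in wild-type-labelled cells. *tcf4* (36.4 and 180 CPM, then 53.3 and 159 CPM) and *neurod1* (140 and 389 CPM, then 139 and 552 CPM) were also among the 10 genes farthest to the glycine side. *ptf1a* had 6.61 and 64.8 CPM in mutant-labelled cells, and 12.2 and 91.6 CPM in wild-type-labelled cells, from 12 and 27 UMIs and from 25 and 34 UMIs. The glycine-only values came from 5 cells labelled mutant and 4 cells labelled wild-type, and over all members 70.8% and 67.0% of *ptf1a* UMIs lay in 5 cells.

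Of 3679 genes averaging at least 50 CPM over all members, 143 (3.89%) were more than 2-fold higher in GABA-only cells in both libraries, and 36 (0.979%) in glycine-only cells. For these counts 5 CPM was added to both classes. GABA-only cells held 1814591 UMIs labelled mutant and 2045230 labelled wild-type, against 416567 and 371056 in glycine-only cells. A filter over all members thus favours genes high in GABA-only cells, so the counts do not show which class had more such genes. The 10 genes with the largest ratio to the GABA side were the globin genes *hbbe1.1*, *hbbe1.2*, *hbbe1.3*, *hbbe2*, *hbae1.3* and *hbae3*, the uncharacterised *LOC100334599* and the cone opsins *opn1sw1*, *opn1sw2* and *opn1mw1*, transcripts of red blood cells and photoreceptors. The classes themselves were defined by *gad1a*, *gad1b*, *gad2*, *slc6a9* and *slc6a5*, and these ratios are a description.

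**Figure D3:**
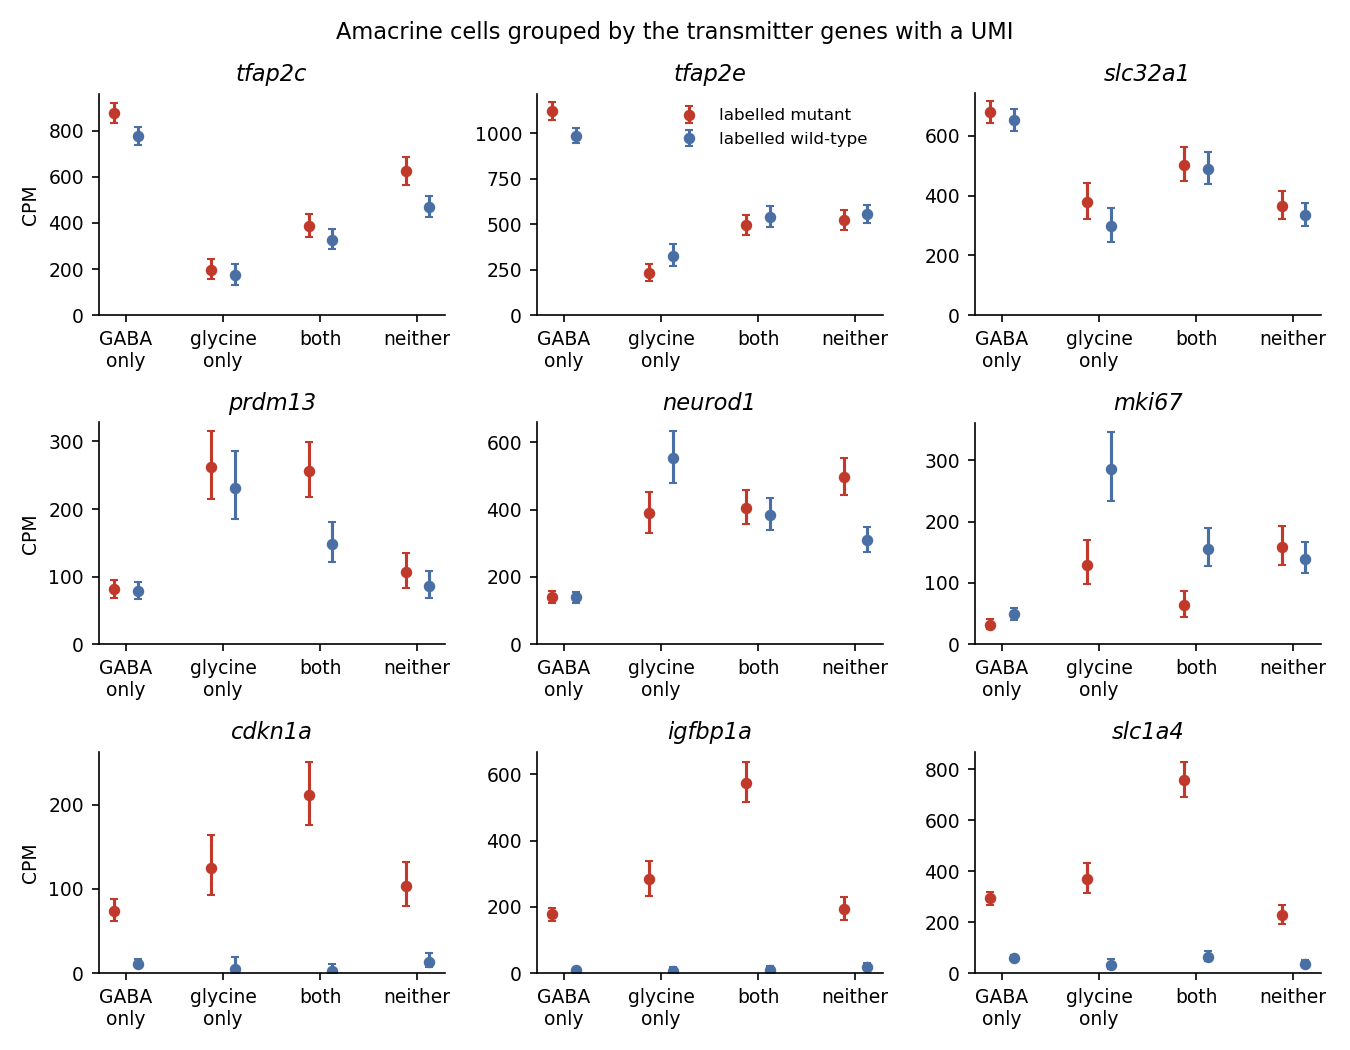
CPM of 9 genes in amacrine cells with a UMI of GABA genes only, of glycine genes only, of both or of neither, with exact Poisson 95% intervals (red, labelled mutant; blue, labelled wild-type; each panel has its own axis from 0). *tfap2c* is lowest and *prdm13* highest in the glycine-only class in both libraries, and *cdkn1a*, *igfbp1a* and *slc1a4* are higher in the mutant-labelled library in all 4 classes.

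The libraries were next compared gene by gene within amacrine cells. Of 7163 genes that averaged 20 CPM or more over the libraries, 263 (3.67%) were more than 1.5-fold higher and 168 (2.35%) more than 1.5-fold lower in mutant-labelled cells, and 90 and 67 were past 2-fold. The median log2 ratio over these genes was 0.09, and 90% of them lay between -0.40 and 0.52. Centring the ratios on that median gave 177 higher and 229 lower. In all other kept cells, 192 of 8144 genes (2.36%) were higher and 61 (0.749%) lower. Members held 3495151 and 3959089 UMIs, of 136913110 and 164266670 in all kept cells, so counting error is larger in members. The other kept cells also average over many cell types. These counts thus do not show which set of cells differed more. Much of the lower side in amacrine cells rested on few cells. Without genes that had at least 50% of their UMIs in 5 members of either library, a step added after the data were seen, 221 of 6962 genes (3.17%) were higher and 82 (1.18%) lower.

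The 12 genes with the largest ratios included *igfbp1a*, *arg2*, *mat2ab*, *cdkn1a* and *slc1a4*. They were taken among genes averaging 50 CPM or more over the libraries. Of those named here, all but *slc1a4* passed that filter only through the mutant-labelled library. Such a filter favours ratios far from 0. *igfbp1a*, an insulin-like growth factor binding protein, had 919 UMIs (263 CPM) in mutant-labelled amacrine cells and 44 UMIs (11.1 CPM) in wild-type-labelled ones, a log2 ratio of 4.56 (4.13 to 5.04). *arg2*, an arginase, had 363 and 16 UMIs, with a log2 ratio of 4.68 (3.96 to 5.51). *mat2ab*, a methionine adenosyltransferase gene, had 327 and 27 UMIs, with a log2 ratio of 3.78 (3.21 to 4.40). These 3 transcripts were spread over members of the mutant-labelled library, with 34.1%, 24.1% and 18.2% of its cells holding a UMI, against 4.03%, 1.25% and 3.62% in the wild-type-labelled library.

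*cdkn1a*, the p21 inhibitor of cyclin-dependent kinases, had 383 UMIs (110 CPM, in 24.8% of members) in the mutant-labelled library and 39 UMIs (9.85 CPM, in 4.03%) in the wild-type-labelled library, a log2 ratio of 3.48 (3.00 to 3.99). *ccng1*, cyclin G1, had 2071 UMIs (593 CPM) and 361 UMIs (91.2 CPM), a log2 ratio of 2.70 (2.54 to 2.87). *slc1a4*, a carrier of alanine, serine and cysteine, had 1302 UMIs (373 CPM) and 213 UMIs (53.8 CPM), a log2 ratio of 2.79 (2.58 to 3.01). *phgdh*, the first enzyme of serine synthesis, had 382 UMIs (109 CPM) and 75 UMIs (18.9 CPM), a log2 ratio of 2.53 (2.17 to 2.91). The uncharacterised *si:ch211-39i2.2* (3.66) and *zgc:136826* (3.06) were also among the 12. Like *phgdh*, both passed the filter of 50 CPM only through the mutant-labelled library.

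The other 3 of the 12 were held by few cells. *s100s* had 780 and 7 UMIs and *pvalb9* 1404 and 54 UMIs, with 99.4% and 97.9% of the mutant-labelled UMIs in 5 cells. *si:ch1073-70f20.1* had 304 and 70 UMIs, with 83.2% and 78.6% in 5 cells of each library. *klf10* had 17 UMIs in 10 mutant-labelled members and 0 UMIs in wild-type-labelled ones. *isg15* had 16 UMIs in 9 mutant-labelled members, 7 of them in 1 cell, and 0 UMIs in wild-type-labelled ones. Both genes were chosen after their values were seen.

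At the low end, the 12 smallest ratios belonged to genes of which 5 members held 62.1% to 100% of the wild-type-labelled UMIs, many of them keratins and other epidermal genes. *krt4*, a keratin of surface epithelia, had 217 UMIs in mutant-labelled and 7572 UMIs in wild-type-labelled members, where 5 cells held 83.1% of them. *gh1*, growth hormone, had 0 UMIs in mutant-labelled members, against 932 UMIs in 1 wild-type-labelled cell. Among genes not held by few cells, the lowest were *rpl22l1*, *dut* and *stmn1a*, chosen after their values were seen. *rpl22l1*, a paralog of the ribosomal protein gene *rpl22*, had 617 UMIs (177 CPM, in 50.9% of members) and 2726 UMIs (689 CPM, in 80.4%), a log2 ratio of -1.96 (-2.09 to -1.84). *dut*, a dUTPase of dividing cells, had 121 and 396 UMIs (-1.53), and *stmn1a*, a stathmin, had 245 and 640 UMIs (-1.21).

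With each member thinned to 1000 UMIs, the shares of cells with a UMI kept this direction. *ccng1* was found in 29.1% (25.4 to 33.0%) of members labelled mutant and 9.03% (7.02 to 11.4%) labelled wild-type. *slc1a4* was found in 23.3% and 5.22%, *igfbp1a* in 15.3% and 1.13%, *cdkn1a* in 8.42% and 0.987%, and *arg2* in 7.89% and 0.423%. In the epidermal cells at the same depth, *ccng1* was found in 31.8% and 32.9%, *igfbp1a* in 6.40% and 6.62%, *cdkn1a* in 3.01% and 2.93%, *slc1a4* in 0.753% and 0.637% and *arg2* in 1.69% and 0.764%. Of these 5 genes, only *arg2* differed by more than 1.5-fold between the libraries in those epidermal cells, from 9 and 6 cells.

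The genes were then counted by lists. These were written with earlier results of these data known, so their counts describe and do not test. Of 23 measured genes of the integrated stress response, the programme run by Atf4 when translation or amino acid supply falters, 18 were more than 1.5-fold higher and 0 lower in mutant-labelled amacrine cells, beside 3.67% higher and 2.35% lower over all genes tested. Their median log2 ratio was 1.28, beside 0.09, and was 0.84 with thinning before the rule and 0.76 over genes of at least 100 CPM. *asns*, asparagine synthetase, had 36.0 and 6.31 CPM (2.51), and *ddit4* had 53.2 and 13.1 CPM (2.02). Both passed the filter of 20 CPM, which is on the mean of the libraries, only through the mutant-labelled library. Such a filter favours ratios far from 0 in the counts and medians. *atf4b* stood at 799 and 471 CPM (0.76), *chac1*, a glutathione-degrading enzyme gene, at 362 and 124 CPM (1.55), and *ddit3*, which encodes the factor CHOP, at 140 and 114 CPM (0.29, 0.10 to 0.48). Of 18 aminoacyl-tRNA synthetase genes, 15 were higher and 0 lower (median 0.80), among them *mars* (1.57), *yars* (1.28) and *tars* (1.11).

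Of 12 measured genes of growth arrest and DNA damage, 6 were higher and 0 lower (median 0.42, but 0.12 over genes of at least 5 CPM and 0.85 with thinning before the rule). Beside *cdkn1a* and *ccng1*, *mdm2*, a ubiquitin ligase gene, had 40.3 and 17.2 CPM (1.23) and *phlda3* 39.2 and 16.7 CPM (1.23). *cdkn1a*, *mdm2* and *phlda3* passed the filter of 20 CPM only through the mutant-labelled library. The lowest of the 12 was at -0.32. Of 24 cell cycle genes, 0 were higher and 9 lower, beside 2.35% lower over all genes tested (median -0.49, and -0.43 in all other kept cells). That median was -0.89 in members without a UMI of another retinal class, -0.87 without the 10% of members with the most UMIs and -1.09 without members with 10 UMIs of photoreceptor, epidermal or blood markers, the last chosen after the data were seen. Members of the list were *hells* at 14.9 and 31.8 CPM (-1.10) and *tpx2* at 24.0 and 46.2 CPM (-0.94). *hells* passed the filter of 20 CPM only through the wild-type-labelled library. At 1000 UMIs, 24.4% (20.9 to 28.1%) of mutant-labelled and 29.1% (25.7 to 32.5%) of wild-type-labelled members had at least 2 UMIs over that list, with overlapping intervals.

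The next lists were also counted beside 3.67% higher and 2.35% lower over all genes tested. Of 48 large-subunit ribosomal protein genes, 0 were higher and 11 lower (median -0.44, and -0.28 in all other kept cells). Of 33 small-subunit genes, 0 were higher and 4 lower (median -0.46, and -0.27). *rpl10a* stood at 1206 and 1996 CPM (-0.73) and *rps20* at 1550 and 2448 CPM (-0.66). Ribosome assembly genes had a median of 0.06, with 1 of 33 higher (*nip7*, 0.76) and 1 lower (*gtpbp4*, -0.61), close to the shares over all genes. Of 9 measured genes of the RNA polymerase III machinery, 0 passed 1.5-fold either way (median 0.07), and the one farthest from 0 was *maf1*, a repressor of that polymerase, at 48.9 and 72.5 CPM (-0.57).

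**Figure D4:**
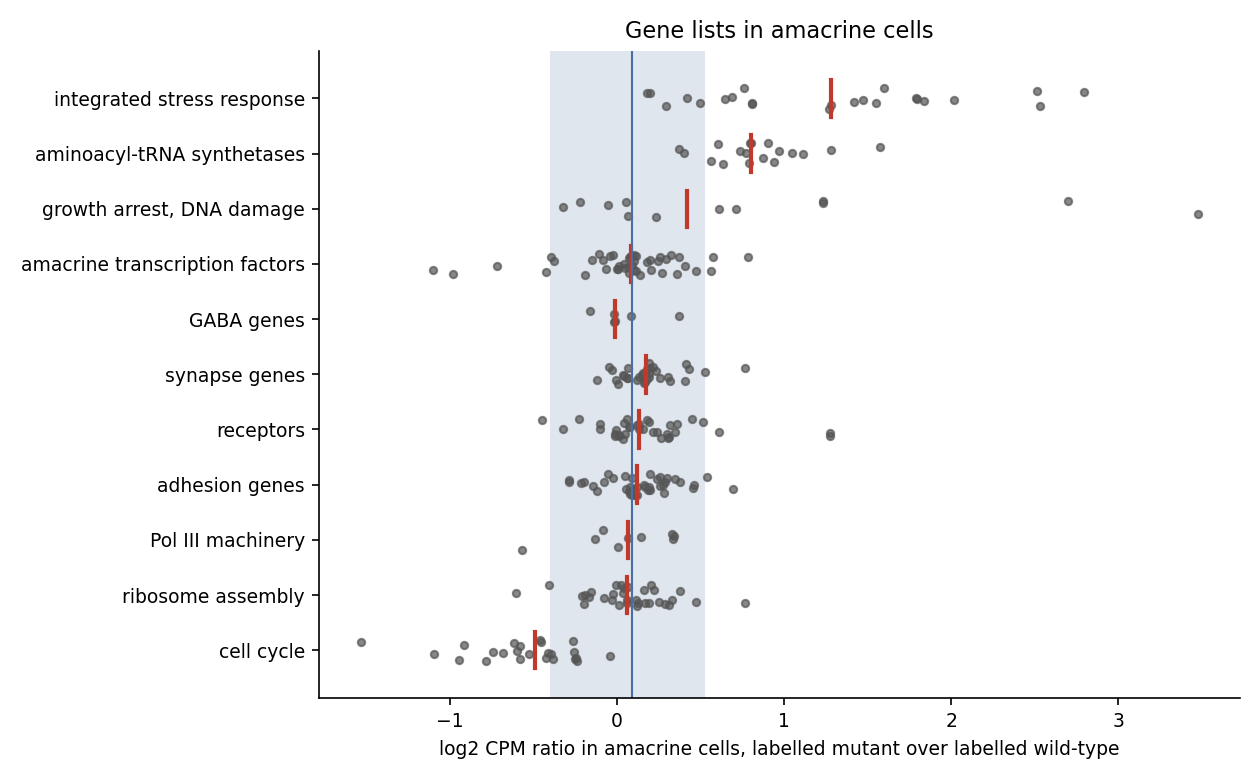
Log2 CPM ratio in amacrine cells, labelled mutant over labelled wild-type, of each gene averaging 20 CPM or more in 11 lists (grey points; red bar, median of the list; blue line, median of all genes at 0.09; shaded, the 5th to 95th percentile of all genes). The 23 stress response genes lie above 0 with a median of 1.28 and the 24 cell cycle genes below 0 with a median of -0.49, while the lists of amacrine function lie around the median of all genes.

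Genes of amacrine identity and function were counted in the same way, beside 3.67% higher and 2.35% lower over all genes. Of 45 amacrine transcription factor genes, 1 was higher (*sox4b*, 76.4 and 44.5 CPM, 0.78) and 3 lower (*eomesa*, -1.10; *lmo3*, -0.98; *fezf1*, -0.72), with a median of 0.08. *eomesa* was held by few cells, 79.7% and 55.2% of its UMIs lying in 5 members, and with thinning before the rule its ratio was 0.44 (-0.81 to 1.70). *pax6a* had a log2 ratio of 0.07 (0.02 to 0.13), *barhl2* of -0.04 (-0.15 to 0.06), *tfap2c* of 0.20 (0.12 to 0.29) and *bhlhe22* of -0.08 (-0.15 to -0.01). Further toward the higher side lay *six3b* (316 and 214 CPM, 0.56) and *ebf1a* (203 and 137 CPM, 0.57).

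Of 6 measured GABA genes 0 passed 1.5-fold. *gad2* had a log2 ratio of -0.02 (-0.16 to 0.13), *gad1b* of -0.02 (-0.21 to 0.18) and *slc32a1* of 0.09. Of 32 synapse genes 1 was higher (*syn1*, synapsin I, 27.5 and 16.2 CPM, 0.76) and 0 lower. Of 36 receptor genes 3 were higher, *grm1a* (36.6 and 15.2 CPM, 1.27), *drd2b* (1.27, with 56.3% of the mutant-labelled UMIs in 5 cells) and *grik4* (0.61), and 0 were lower. Of 39 adhesion genes 1 was higher (*cntn3a.1*, 0.69) and 0 lower. Of the genes called here, *syn1* and *grm1a* passed the filter of 20 CPM only through the mutant-labelled library.

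The stress-linked genes were set beside other retinal classes in the same libraries, defined by their own markers. There were 848 and 824 bipolar, 340 and 505 ganglion, 981 and 941 Müller, and 1209 and 1409 photoreceptor cells. Bipolar cells had UMIs of *vsx1* and of *cabp5a* or *cabp5b*, and ganglion cells of *rbpms2b* and of *isl2b*, *pou4f3* or *islr2*. Müller cells had UMIs of *rlbp1a* and *glula*, and photoreceptors of *crx* and of *gnat2*, *gnat1* or *pde6c*. None had a *pax10* UMI, and a cell could meet more than 1 of these rules. Müller cells also held 1265 and 1330 CPM of *vsx1* and 1420 and 1580 CPM of *gnat2*, and bipolar cells 821 and 589 CPM of *rlbp1a*. *cdkn1a* had a log2 ratio of 3.48 (3.00 to 3.99) in amacrine cells, 2.31 (1.79 to 2.85) in ganglion cells, 1.35 in photoreceptors, 1.16 in Müller cells, 0.62 in bipolar cells and 1.79 in all other kept cells. Its mutant-labelled level of 110 CPM in amacrine cells was close to the 95.2 CPM of all other kept cells. The wild-type-labelled level was lower in amacrine cells, at 9.85 CPM, against 27.4 CPM in all other kept cells.

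*igfbp1a* had a log2 ratio of 4.56 in amacrine cells and up to 2.76 in the other retinal classes, and *mat2ab* one of 3.78 against 0.84 to 1.91. *phgdh* had one of 2.53 against 0.73 to 1.61. For *cdkn1a*, *igfbp1a*, *mat2ab*, *phgdh*, *ccng1*, *chac1*, *arg2* and *slc1a4* the counting interval in amacrine cells lay above the ratio of every other retinal class and of all other kept cells. Of these, 7 were among the 12 largest amacrine ratios, so this order is partly fixed by the choice and is a description. Among those 7, *cdkn1a*, *igfbp1a*, *mat2ab*, *phgdh* and *arg2* passed the filter of 50 CPM only through the mutant-labelled library. *slc1a4* was the closest, at 2.79 (2.58 to 3.01) against 2.44 in ganglion cells. The order is one of ratios. Of these genes, all but *phgdh* and *ccng1* also had their highest mutant-labelled level in amacrine cells. *phgdh* had 109 CPM there, against 120 in ganglion, 148 in Müller and 160 in all other kept cells. Its wild-type-labelled levels were 18.9 CPM, against 39.3, 85.3 and 73.3 CPM. *ccng1* had 593 CPM, against 585 in ganglion and 772 in all other kept cells. The log2 ratio of *rpl22l1* was -1.96, against -1.47 to -0.97 in the other retinal classes. *slc7a3a*, an amino acid transporter gene, also had its amacrine interval above the other ratios. It was at 2.01 (1.70 to 2.33), against 0.96 in ganglion cells and 1.11 in all other kept cells. Several other stress-linked genes had no such order. *psat1* was at 1.79, against 1.69 in ganglion cells, and *bcat1* at 1.40, against 1.58 in ganglion cells. *asns* was at 2.51 (1.89 to 3.19), against 1.95 in ganglion cells. *sesn2*, a sestrin, was at 2.38 in amacrine cells, against 2.84 in ganglion cells. *atf5b* was at 2.76, against 2.95 in bipolar cells and 2.96 in all other kept cells, and *mdm2* at 1.23, against 1.95 in ganglion cells. *klf10* and *isg15* stood at 4.86 and 4.58 CPM in mutant-labelled amacrine cells, against 20.3 and 26.2 CPM in the other mutant-labelled cells.

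*atf4b* had the same ratio of 0.76 in amacrine cells and all other kept cells and 0.99 in ganglion cells, and *ddit3* had 0.29 in amacrine cells, against 0.99 in ganglion cells and 0.93 in all other kept cells. The median of the stress response genes was 1.28 in amacrine cells, 0.94 in ganglion cells and 0.48 in Müller cells. It was 0.32 in bipolar cells, 0.32 in photoreceptors and 0.98 in all other kept cells, where 19 of 30 were higher. Each class was measured over its own genes of at least 20 CPM, so the gene sets differed between classes. In amacrine cells the median was 0.95 over genes of at least 5 CPM and 0.76 over genes of at least 100 CPM. With thinning before the rule it was 0.84. Medians of the other classes were not computed at these settings. Aminoacyl-tRNA synthetases had a median of 0.80 in amacrine cells, against 0.83 in ganglion cells and 0.89 in all other kept cells, and the growth arrest and DNA damage genes 0.42, against 0.60 in Müller cells. With 1 library per condition, these differences between classes were not tested.

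**Figure D5:**
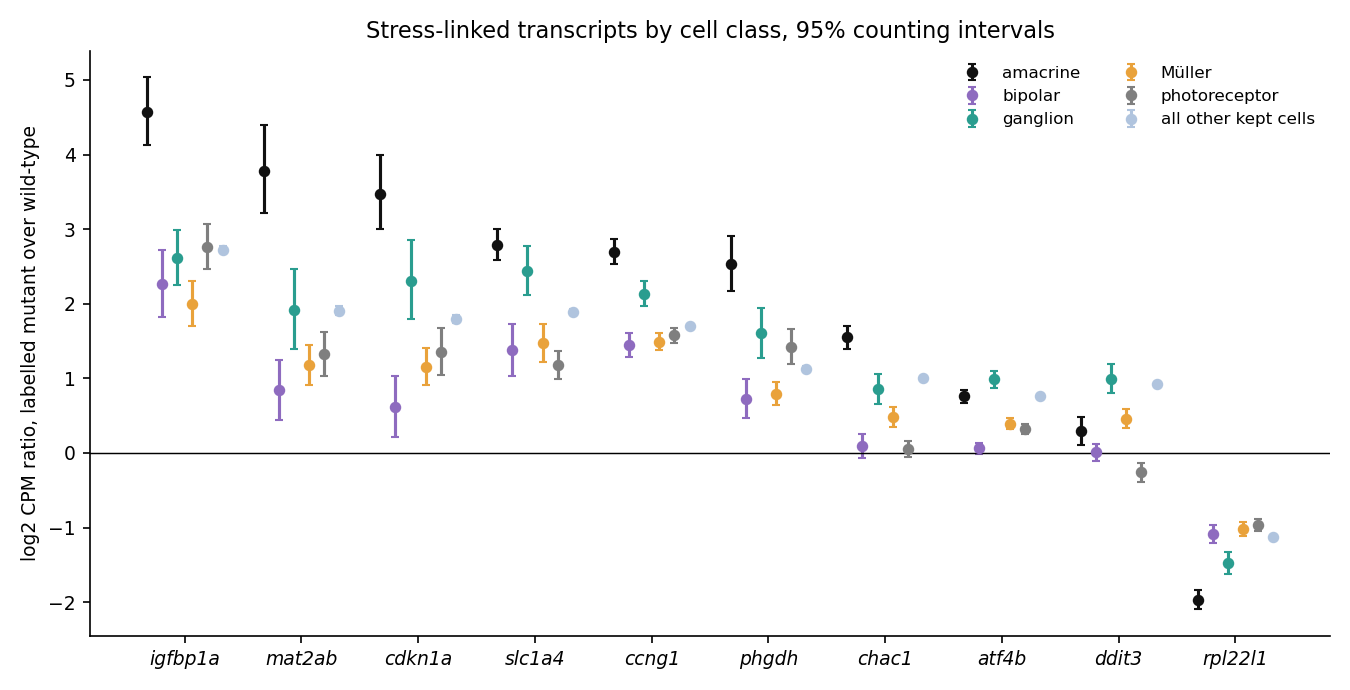
Log2 CPM ratio, labelled mutant over labelled wild-type, of 10 genes in amacrine cells (black), 4 other retinal classes and all other kept cells, with exact 95% conditional binomial intervals that cover counting error only. Amacrine cells have the largest ratio of *igfbp1a* (4.56) and *cdkn1a* (3.48) and the smallest of *rpl22l1* (-1.96), whereas *ddit3* is at 0.29.

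Within amacrine cells the ratios of *cdkn1a*, *igfbp1a* and *slc1a4* were in the same direction in each transmitter class. *cdkn1a* had 73.8 CPM in mutant-labelled and 11.2 CPM in wild-type-labelled GABA-only cells, and 125 and 5.39 CPM in glycine-only cells, the wild-type-labelled value from 2 UMIs. In cells with both it had 211 and 2.97 CPM, again from 2 UMIs, and in cells with neither 103 and 13.8 CPM. *igfbp1a* had 177 and 8.80 CPM in GABA-only cells, and 575 and 10.4 CPM in cells with both. *slc1a4* had 294 and 61.1 CPM in GABA-only cells, 370 and 32.3 CPM in glycine-only cells and 758 and 65.4 CPM in cells with both. Levels in mutant-labelled cells were thus highest in the class with both, which was also the deepest. Some list medians differed in sign between GABA-only and glycine-only cells. These were ribosome assembly (-0.29 and 0.52), the RNA polymerase III machinery (-0.10 and 0.38), receptors (0.19 and -0.17) and amacrine transcription factors (0.03 and -0.08). The other lists compared had the same sign in both, among them the stress response (0.83 and 1.42). In glycine-only cells 1343 of 7290 genes were past 1.5-fold higher and 1107 lower, against 416 and 224 of 7070 in GABA-only cells. With 52 and 57 glycine-only cells, counting error is larger there. The genes measured also differed, at 30 in GABA-only and 38 in glycine-only cells for ribosome assembly. Whether the classes differ in these lists was not tested.

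The ratios were also computed apart from members with transcripts of other retinal classes. In members without a UMI of *vsx1* or the other 6 genes named above, *cdkn1a* stood at 125 and 10.3 CPM, *igfbp1a* at 295 and 13.5 CPM and *slc1a4* at 465 and 60.4 CPM. In the members with such a UMI, *cdkn1a* stood at 101 and 9.57 CPM and *igfbp1a* at 245 and 9.57 CPM.

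In single mutant-labelled members thinned to 1000 UMIs, several stress-linked genes were found more often in cells with *cdkn1a*. Of the 48 cells with a *cdkn1a* UMI, 68.8% (53.7 to 81.3%) had a *ccng1* UMI, against 25.5% (21.8 to 29.4%) of the 522 without. *slc1a4* was found in 47.9% and 21.1% and *chac1* in 41.7% and 19.3%. *phgdh* was found in 12 of the 48 and 40 of the 522 cells. Intervals overlapped for *igfbp1a* (29.2%, 17.0 to 44.1%, and 14.0%, 11.1 to 17.3%), *psat1* (16.7% and 8.81%), *mdm2* (6.25% and 1.34%), *arg2* (8.33% and 7.85%), *ddit3* (10.4% and 9.77%) and *atf4b* (54.2% and 46.7%). These are cells of 1 library, and the shares carry no test.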

How the data were processed

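The authors aligned 3′ gene expression libraries (GEM-X chemistry) with Cell Ranger, for which the deposited matrices' header gives version 8.0.0 and the methods another, and the submitters' processing notes name GRCz11. The deposited files hold raw counts of UMIs for each gene and barcode, before the authors' filters, normalization and doublet removal by scDblFinder, which was not repeated. No doublet caller was run, and possible doublets were treated through the alternatives below.

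Members' UMIs were added up within each library and scaled to CPM. Intervals are exact and at 95% (Clopper-Pearson for shares, Poisson for levels, conditional binomial for ratios). UMIs are treated as independent, which makes intervals too narrow for a gene held by few cells. A gene was called past 1.5-fold at a mean of at least 20 CPM, leaving out the genes of the rule. The mean is over both libraries, so a gene could pass through its level in 1 of them. No test between conditions was made, since cells of 1 library are not replicates. Shares were compared after thinning each cell without replacement to 1000 UMIs. Genes of the same family can share reads, and how the authors' counting split them was not tested.

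The members and lists were chosen with earlier results of these data known. The genes named are the 15 highest over other cells, the 12 largest and 12 smallest ratios (averaging 50 CPM or more), the 4 of each list farthest from 0, transmitter and transcription factor genes of at least 50 CPM, the 10 farthest to each side between transmitter classes, and those the study names. The rankings over other cells and between transmitter classes used ratios with 5 CPM added to both sides. Genes outside this rule, including marker genes, rarer transmitter and peptide genes, and those of the class comparison, were chosen with values known. A gene that the study names is not reported here. In simulated libraries with independent Poisson counts, 95.4% of intervals over 7120 genes covered the true ratio. The intervals assume that same model, so this checks the computation only. It does not cover UMIs that cluster in cells or spread between libraries. Alternatives changed the cell filters, the rule, the filter on CPM, scaling and averaging. Scripts ran in Python 3.11.15 (pandas 2.3.3, scipy 1.17.1, numpy 2.4.6, matplotlib 3.10.9).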

Additional observations from a re-analysis of the deposited data

Results flagged for a closer look

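Among the genes named, 3 were past 1.5-fold in opposite directions in amacrine cells and in all other kept cells. This difference was not tested. *s100s* had a log2 ratio of 6.98 in amacrine cells and -1.72 in all other kept cells, *pvalb9* had 4.88 and -0.74, and *th* had 1.72 and -0.79. In amacrine cells each was held by few cells. *s100s* had a UMI in 10 mutant-labelled and 6 wild-type-labelled members and *pvalb9* in 19 and 19, and *th* in 12 and 10.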

How the results depend on the processing

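With 1 library per condition no replicate could be left out. No paired analysis was possible because each condition has 1 library and no test was made. Among the list medians, 181 values stayed and 14 moved, judged by the median lower and median upper limit of the list's genes. Those limits are not an interval for the median itself. Among shares and counts of genes, 51 stayed and 25 moved, judged by the interval of a share and by 1.5-fold for a count. Among the named genes, 1071 stayed within their counting interval, 242 moved and 3 reversed. The 3 reversed with each cell thinned to 1000 UMIs before the rule (*eomesa* 0.44, *icn2* 0.32 and *krt17* 0.32, each with an interval that spans 0). The cause was not tested.

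The amacrine share was 1.93% in the mutant-labelled library and 1.66% in the wild-type-labelled library with at least 2 AP-2 UMIs, 0.975% and 0.954% without members holding a UMI of another retinal class, 2.44% and 2.2% with *rbpms2b* allowed, and 1.07% and 0.979% with thinning before the rule. With at least 2 UMIs at full depth, GABA shares were 44.6% and 40.1% and glycine shares 12.6% and 8.07%. The GABA share was 33.2% in the mutant-labelled library with thinning before the rule, and 31.5% in the wild-type-labelled library without members holding a UMI of another retinal class. Higher and lower genes numbered 552 and 336 of 7235 without those members, 1212 and 888 of 7043 with thinning before the rule, 972 and 726 of 12568 at 5 CPM, and 32 and 44 of 1850 at 100 CPM. Thinning before the rule left 274 mutant-labelled and 343 wild-type-labelled members, each with fewer UMIs. Counting error is larger there, as it is with fewer members or at 5 CPM. The larger counts at these settings thus do not show a larger difference between the libraries.

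With thinning before the rule, list medians were 0.84 for the stress response, 0.85 for growth arrest and DNA damage, 0.55 for aminoacyl-tRNA synthetases and -0.52 for large-subunit proteins. The stress response median was 0.95 at 5 CPM and 0.76 at 100 CPM, and that of growth arrest 0.12 at 5 CPM. Centring gave -0.53 for large-subunit and -0.55 for small-subunit proteins. The cell cycle median was -0.89 without members holding a UMI of another retinal class and -0.87 without the 10% of members with the most UMIs. Both of the following were chosen after seeing the data. Without members with 10 UMIs of photoreceptor, epidermal or blood markers the amacrine shares were 1.88% and 1.70%, the cell cycle median -1.09 and the small-subunit median -0.51. Without genes held by few members, 82 of 6962 genes were lower.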
